A study of Mus musculus with 12 samples.

Results

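The effect of capsaicin (CAP) that day 3 and day 6 of skin wound healing had in common was measured over 12 RNA libraries, with 6 from CAP-treated wounds set against 6 from the sham group and with the day as a covariate. Of the 55487 genes listed, 17784 had a mean of 0.3 TPM, a transcript's share of the library scaled per length, or more in each of the 4 groups and were tested. The members are the 168 genes that were past the threshold, which was 2-fold or more with an unadjusted limma p under 0.05, and that lay on the same side of 0 at both days. There were 148 members lower and 20 members higher in CAP-treated wounds. The lower members were 0.832% of all genes tested, and no gene had a Benjamini-Hochberg adjusted p under 0.05 in limma. They included 25 of 103 genes tested of the interferon lists, among them 5 of 8 oligoadenylate synthetases. They also included 6 of 32 genes of the chemokine system and 4 of 24 matrix genes. Without the day 6 CAP library labelled replicate 2, 2 and 1 genes of these last lists were past the threshold. The largest differences among the lower members were in muscle genes such as Actc1 and Myh3. The higher members were few and mostly not protein-coding.

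All libraries came from the skin of male C57BL/6JNarl mice, aged 6 weeks, with 2 full-thickness punch wounds of 6 mm on the back of each. CAP-treated wounds received 10 µM CAP in Pluronic F127 (P-F127) gel, and wounds of the sham group received the gel alone, so every library carries the wound, the gel and the dressing. Tissue was taken at day 3 or day 6 after wounding, with 3 libraries for each treatment and day. The labels and the methods give the dose in µM, while 1 passage of the study's text gives it in mM. No source used here says which libraries share a mouse, so the p-values measure the spread between libraries, which may be technical. Whole wound tissue was sequenced, and fewer cells of a type and less RNA per cell cannot be told apart in it.

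As background, interferons are secreted when cells sense foreign or misplaced nucleic acid or when lymphocytes are activated. Their receptors activate STAT proteins, which with IRF9 bind a promoter element, the interferon-stimulated response element, and as pairs of their own bind a second element, the gamma-activated sequence. The genes that follow encode sensors of nucleic acid, transcription factors that carry the signal on, and effectors such as the oligoadenylate synthetases, which detect double-stranded RNA. In a skin wound the early days bring neutrophils and then monocytes, drawn by chemokines, before fibroblasts, vessels and keratinocytes fill and close the gap.

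The 250 bases before the annotated start are shown for the 4 genes of the interferon lists with the smallest p among the members so that the elements named above can be looked for in them. The sequences are those of RefSeq on GRCm38.p6, written 5′ to 3′ on the strand of the gene. Capitals mark matches, on either strand, to the interferon-stimulated response element, read as GAAA, any 2 bases and GAAA, or to the gamma-activated sequence TTCNNNGAA, which can overlap. They lie at chr5:114922990-114923239 (+) for Oasl1, chr8:71537473-71537722 (-) for Bst2, chr3:142496684-142496933 (+) for Gbp5 and chr5:120777660-120777909 (-) for Oas3. The RefSeq start used was 2956 bases from the GENCODE M21 start for Gbp5 and at most 16 bases from it for the other 3 genes.
Oasl1: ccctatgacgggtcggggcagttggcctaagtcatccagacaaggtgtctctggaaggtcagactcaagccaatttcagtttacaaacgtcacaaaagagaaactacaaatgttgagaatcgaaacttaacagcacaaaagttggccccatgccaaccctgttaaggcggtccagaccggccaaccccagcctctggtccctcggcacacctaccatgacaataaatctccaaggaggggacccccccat
Bst2: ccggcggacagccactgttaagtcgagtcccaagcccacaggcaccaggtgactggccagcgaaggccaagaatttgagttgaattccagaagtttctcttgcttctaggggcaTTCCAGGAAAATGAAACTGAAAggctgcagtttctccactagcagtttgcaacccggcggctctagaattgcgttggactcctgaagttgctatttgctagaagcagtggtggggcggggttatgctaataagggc
Gbp5: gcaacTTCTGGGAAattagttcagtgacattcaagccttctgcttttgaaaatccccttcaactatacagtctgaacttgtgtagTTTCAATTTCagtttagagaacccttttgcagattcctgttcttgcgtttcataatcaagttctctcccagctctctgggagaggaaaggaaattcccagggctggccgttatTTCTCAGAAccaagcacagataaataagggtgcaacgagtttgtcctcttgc
Oas3: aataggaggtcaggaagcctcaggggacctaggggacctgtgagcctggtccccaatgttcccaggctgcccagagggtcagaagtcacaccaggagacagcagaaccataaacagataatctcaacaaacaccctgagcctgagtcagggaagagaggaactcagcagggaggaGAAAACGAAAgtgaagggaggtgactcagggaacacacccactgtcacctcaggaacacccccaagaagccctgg
Bst2 held 2 overlapping response-element matches, beginning 130 and 124 bases before the start, and 1 gamma-activated match at 136 bases. Gbp5 held 1 response-element match at 165 bases and gamma-activated matches at 245 and 52 bases, Oas3 held 1 response-element match at 75 bases, and Oasl1 held neither set of letters in this window. A response-element match was found in 12 of the 19 lower members of the interferon lists that had a promoter in the table (63.2%), in 7 of 79 other lower members (8.86%) and in 618 of all 20963 promoters (2.95%). Over all tested genes of the interferon lists with a promoter, lower members included, such a match was found in 34 of 80 (42.5%). The gamma-activated letters were in 26.3%, 6.33%, 6.83% and 18.8% of these 4 sets, in the order given. These are matches of letters and were not tested as binding sites.

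TPM keep no record of depth, which is therefore unknown. Each library had 18533 to 19325 genes at 0.3 TPM or more, and mitochondrial genes held 5.21% to 6.56% of the TPM. Defining markers of keratinocytes, fibroblasts, macrophages, endothelial cells, T and NK cells and muscle were above 0 in every library. The CAP-treated library of day 6 labelled replicate 2 stood apart from the rest: it had the lowest mean correlation with the other libraries (0.952) and a Krt10 level of 40800 TPM, against 4190 to 19500 TPM in the others. Leaving it out gave 102 genes lower and 14 higher over both days, of which 86 and 12 were also past the threshold with it. Results of many lists, though not of all, are therefore given below with and without it.

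Over all genes tested, 148 were lower (0.832%) and 21 were higher (0.118%), and of these only Flg changed side between the days. No gene (0%) reached a Benjamini-Hochberg adjusted p under 0.05 in limma, where 2926 genes had an unadjusted p under 0.05. Of these, 2418 were lower (13.6%) and 508 higher (2.86%). The smallest adjusted p was 0.112, which 28 genes shared; all 28 were lower in CAP-treated wounds, and 11 were in the interferon lists. Leaving out each library in turn gave 1 gene at an adjusted p under 0.05, without the CAP-treated library of day 3 labelled replicate 1, and the other settings gave 0. Adjusted p ranged from 0.112 to 0.303 over the lower members and from 0.116 to 0.294 over the higher members. The median over all genes tested was -0.08 on the log2(TPM + 0.1) scale, on which all differences below are CAP minus sham and on which the pseudocount understates changes of low genes.

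The split of 148 lower and 21 higher depended on scaling. It was 87.6% lower with TPM as deposited, 76.0% (111 against 35) after median-ratio scaling, which brought the median of all genes to 0.01, and 69.1% (94 against 42) after quantile normalization. Of the genes lower in these fits, 109 and 93 were among the 148.

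At day 3, 196 genes were lower (1.10%) and 68 higher (0.382%), and at day 6, 468 were lower (2.63%) and 262 higher (1.47%). Among the genes lower at day 3, 27 were also lower past the threshold at day 6, which is 13.8% of the day 3 list and 5.77% of the day 6 list, beside the 2.63% of all genes that were lower past it at day 6. Of the genes higher at day 3, 2 were also higher at day 6, which is 2.94% of the day 3 list and 0.763% of the day 6 list. The sham and CAP libraries of the days are separate samples. Of the genes lower at day 3, 73.5% were below 0 at day 6, beside 65.8% of all genes, and of those lower at day 6, 67.3% were below 0 at day 3, beside 62.4%. Of the genes higher at day 3, 17.6% were above 0 at day 6, beside 34.2% of all genes, and of those higher at day 6, 51.1% were above 0 at day 3, beside 37.6%.

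Over all genes tested, 55.9% lay on the same side of 0 at both days, with 42.1% below 0 and 13.8% above 0 at both. The difference over both days was below 0 for 67.6% of all genes. Pearson's r of the day 3 and day 6 differences across genes was 0.04; genes are not independent replicates. The CAP and sham libraries did not overlap at either day, always with CAP lower, for 427 genes (2.40%), and with CAP higher for 18 (0.101%). These 445 genes are those at the smallest p, 0.005, that the exact permutation test of CAP and sham within days (400 divisions, 2-sided) can give. They included 39 of the 148 lower members and 0 of the 20 higher members. The difference between the effects of the 2 days had an unadjusted limma p under 0.05 for 2038 genes (11.5%), of which 11 were lower members and 3 higher members, and an adjusted p under 0.05 for 0.

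**Figure D1:**
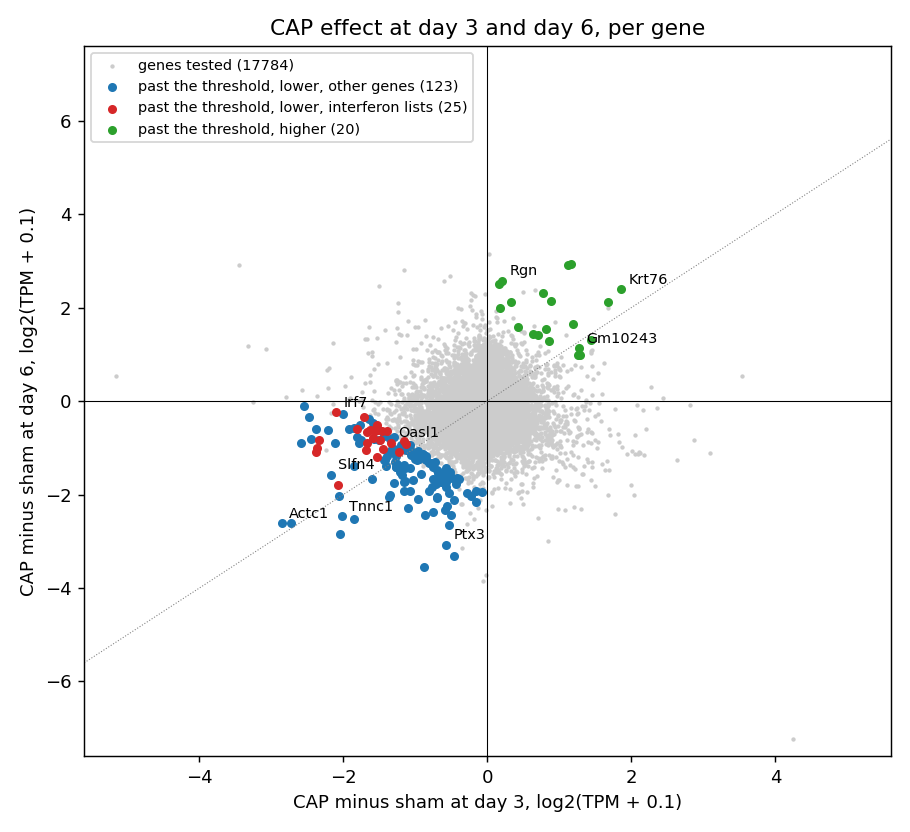
Each point is 1 of the 17784 genes tested, with the CAP minus sham difference at day 3 on the x axis and at day 6 on the y axis, both as log2(TPM + 0.1). The 148 lower members lie at the lower left, with the 25 members of the interferon lists (red) all larger at day 3 than at day 6, and the 20 higher members lie mostly nearer the day 6 axis.

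Of the lower members, 73 were past the threshold at day 3 on its own, 92 at day 6 on its own, 27 at each day and 10 at neither. The difference was larger at day 3 for 66, among them all 25 members of the interferon lists, and at day 6 for 82. By annotation 121 were protein-coding and 27 were not. There were 25 members in the 4 interferon lists (sensing and signalling, effectors, inducible GTPases and oligoadenylate synthetases) and 46 in any of the 29 lists used. With each library left out in turn, 46 lower members and 7 higher members stayed past the threshold every time, and over all 22 other settings 28 and 4 did.

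The oligoadenylate synthetases had the lowest median of all lists, at -1.14 against -0.08 over all genes tested, and all 8 genes tested were below 0. Past the threshold were 5 of 8, beside 0.832% of all genes: Oasl1, Oas3, Oas2, Oasl2 and Oas1g. Their summed level was 246 to 305 TPM in the sham group and 62.2 to 164 TPM in CAP-treated wounds at day 3, and 93.4 to 136 TPM against 51.4 to 103 TPM at day 6. Without the day 6 CAP library labelled replicate 2 the median was -1.13 and the same number, 5, was past the threshold.

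Oasl1, on chromosome 5 (114923240 to 114937915, plus strand, GRCm38), encodes an oligoadenylate synthetase-like protein without synthetase activity. It stood at 30.0, 28.9 and 32.1 TPM in the sham group and at 16.1, 7.20 and 14.4 TPM in CAP-treated wounds at day 3, and at 11.6, 8.52 and 9.03 TPM against 6.50, 5.04 and 4.15 TPM at day 6. No CAP-treated library reached the lowest sham library of its day. The log2 difference was -1.12 ± 0.20 (SE), with an adjusted p of 0.112 and an exact permutation p of 0.005. Without the CAP-treated library of day 3 labelled replicate 2 it was -0.93, short of 2-fold, as was Oasl2 (-0.95).

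Oas3, on chromosome 5 (120753098 to 120777661, minus strand), makes short 2′-5′ oligoadenylates that switch on RNase L. Its levels at day 3 were 20.6, 18.2 and 17.8 TPM in the sham group against 10.6, 3.79 and 6.59 TPM, and at day 6 they were 9.37, 7.74 and 4.97 TPM against 5.36, 1.90 and 2.77 TPM. The groups were apart at day 3 and overlapped by 1 library at day 6. The difference was -1.36 ± 0.28 (exact permutation p = 0.01). Oas2, a sister enzyme, was lower by -1.29 ± 0.28, with 54.2, 37.2 and 49.1 TPM against 24.9, 8.50 and 14.4 TPM at day 3 and 23.4, 22.7 and 17.4 TPM against 18.4, 8.50 and 8.83 TPM at day 6. Oas1g differed by -1.20 but shares 55.1% of its 31-base stretches with other genes, most with Oas1a, and is uncertain for that reason.

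Interferon effectors, the proteins made in answer to the signal, were below 0 in all 50 genes tested, with a median of -0.77 (-0.84 at day 3 and -0.63 at day 6). Of these, 45 had an unadjusted p under 0.05, beside 13.6% of all genes, and 13 were past the threshold. The summed level was 3140 to 3940 TPM in the sham group and 1590 to 2390 TPM in CAP-treated wounds at day 3, and 2020 to 2410 TPM against 1190 to 1870 TPM at day 6, so the groups were apart at each day. With replicate 2 of the CAP-treated group at day 6 left out, the median was -0.68 and 13 genes were past the threshold.

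Bst2, which encodes tetherin, a protein that holds enveloped virus at the cell surface, stood at 163, 156 and 150 TPM in the sham group against 83.3, 41.0 and 61.7 TPM at day 3. Its day 6 levels were 78.9, 67.0 and 75.2 TPM against 57.2, 39.3 and 46.8 TPM. The groups were apart at both days, and the difference was -1.02 ± 0.18 (exact permutation p = 0.005), just past 2-fold; it ranged from -1.12 to -0.85 over the other settings and missed 2-fold in 8 of 22. Its effect was smaller at day 6 (-0.64) than at day 3 (-1.39).

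Isg15, a ubiquitin-like modifier, had 49.9, 48.7 and 47.9 TPM in the sham group against 26.2, 9.94 and 13.3 TPM at day 3, and 31.2, 15.4 and 13.7 TPM against 13.7, 9.50 and 5.52 TPM at day 6. The groups were apart at day 3 and met at day 6. The difference was -1.37 ± 0.30 (exact permutation p = 0.01). Ms4a4c, a membrane protein of the MS4A family, was at 44.7, 46.4 and 49.8 TPM against 22, 6.10 and 5.33 TPM at day 3 and at 15, 11.6 and 10.6 TPM against 8.70, 3.72 and 5.70 TPM at day 6, a difference of -1.74 ± 0.37 (exact permutation p = 0.005). Its groups did not overlap at either day.

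Other effectors past the threshold included Mx1, a GTPase that blocks viral replication (-1.24 ± 0.35), Ifi44 (-1.69 ± 0.50), Rtp4 (-1.07 ± 0.28), Phf11d (-1.02 ± 0.22), Ifit1 (-1.10 ± 0.36) and Ifit3 (-1.02 ± 0.40). Ifit1 and its relatives bind viral RNA, and Ifit3 shares 61.8% of its 31-base stretches with other genes, most with Ifit3b. Phf11d, Rtp4, Ifit1 and Ifit3 missed the threshold in 8, 4, 4 and 10 of 22 other settings. Slfn4, a Schlafen-family gene of myeloid cells that is in none of the lists, was among the 12 lower members of smallest p. It had 170, 116 and 125 TPM against 61.8, 17.0 and 25.2 TPM at day 3 and 31.8, 41.0 and 24.9 TPM against 13.7, 4.41 and 19.8 TPM at day 6. No overlap of the groups was seen at either day, with a difference of -1.87 ± 0.38 (exact permutation p = 0.005).

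Several effectors had smaller differences that were steadier between libraries. Isg20, an exonuclease, differed by -0.74 ± 0.13, Sp100, a nuclear body protein, by -0.60 ± 0.11, and Ifitm3, a membrane protein that hinders virus entry, by -0.71 ± 0.13. All 3 had an adjusted p of 0.112 and an exact permutation p of 0.005, and none was 2-fold.

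Among the 26 genes of interferon sensing and signalling, 24 were below 0, with a median of -0.40, or -0.31 without the day 6 CAP library labelled replicate 2. An unadjusted p under 0.05 was found for 14, all lower, beside 13.6% of all genes, and 2 were past the threshold, Zbp1 and Irf7. Stat2, a signal carrier below the type I receptor, stood at 76.1, 68.1 and 69.7 TPM against 53.3, 33.8 and 36 TPM at day 3 and at 51.1, 47.9 and 39.4 TPM against 36.9, 25.2 and 26.6 TPM at day 6. It was apart at both days and differed by -0.74 ± 0.13 (adjusted p = 0.112). The RNA sensors Ddx58 (-0.78 ± 0.15) and Dhx58 (-0.97 ± 0.20) also had an exact permutation p of 0.005.

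Irf7, the factor that amplifies type I interferon, was among the 9 genes of the 4 lists whose days differed at an unadjusted p under 0.05. It had 183, 201 and 199 TPM in the sham group against 98.8, 22 and 42.4 TPM at day 3. At day 6 the groups overlapped, with 46.7, 38.8 and 37.9 TPM against 51.2, 35.7 and 22.7 TPM. The difference over both days, -1.17 ± 0.40, was therefore made of -2.10 at day 3 and -0.24 at day 6. Zbp1, a sensor of Z-form nucleic acid, differed by -1.17 ± 0.28. Without the CAP-treated library of day 3 labelled replicate 2, Irf7 was no longer past the threshold (-0.84) and Zbp1 missed 2-fold (-0.95).

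The interferon-inducible GTPases, which attack compartments that hold microbes, were below 0 in all 19 genes tested (median -0.74). An unadjusted p under 0.05 was found for 18, beside 13.6% of all genes that were lower at such a p, and 5 were past the threshold: Gbp5, Gbp9, Gm12250, Tgtp1 and Tgtp2. Gbp5, a guanylate-binding protein on chromosome 3 (142493978 to 142522344, plus strand), had 7, 6.32 and 6.91 TPM against 4.92, 2.49 and 2.27 TPM at day 3, and 6.20, 7.67 and 6.21 TPM against 4.61, 2.74 and 3.28 TPM at day 6. Its groups were apart at each day, at -1.02 ± 0.19 (exact permutation p = 0.005). Tgtp1 (-1.13) and Tgtp2 (-1.19) are near-identical copies that share 84.4% and 90.5% of their 31-base stretches with other genes, so their split is uncertain, and without the CAP-treated library of day 3 labelled replicate 2 neither was past the threshold. Without the day 6 CAP library labelled replicate 2, Gbp5 (-0.96) and Gbp9 (-0.88) missed 2-fold and 3 genes of the list were past the threshold.

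Olfr56, an olfactory receptor gene with a p among the 12 smallest, overlaps Ifi47 on the same strand. Olfr56 (0.254 to 2.55 TPM) and Ifi47, an inducible GTPase gene (5.99 to 18.9 TPM), differed by -1.34 ± 0.26 and -0.90 ± 0.17, and reads of the 2 genes may not be separable. Ifi203-ps, a pseudogene of the interferon-inducible Ifi200 family that shares 47.7% of its 31-base stretches with other genes, most with Ifi203, was apart at both days at -1.04 ± 0.21 and missed the threshold in 5 of 22 other settings. Iigp1 (-0.90 ± 0.26) and Gbp3 (-0.94 ± 0.24), which the study names, were not 2-fold over both days.

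Taking the 4 interferon lists as 1, 101 of 103 genes tested were below 0, 93 of them at both days, and 84 had an unadjusted p under 0.05, all lower. The groups were apart at both days with CAP lower for 35, beside 2.40% of all genes. The median was -0.74, and -0.68 without the day 6 CAP library labelled replicate 2, where 81 had such a p. The lists were chosen with earlier results of these data known. The study had already reported interferon-inducible GTPases as lower, from libraries that are among those used here. The direction of the 4 lists is therefore not independent evidence at day 3, at day 6 or over both days. At day 6 their median was -0.58. The genes of the 4 lists shared an order of libraries within a group. In all 25 members of the lists, the CAP-treated library of day 3 labelled replicate 1 was the highest of its group, and in 22 the one labelled replicate 2 was the lowest, where the same libraries were highest in 42.6% and lowest in 34.9% of all genes tested. At day 6, the CAP-treated library labelled replicate 1 was the highest of its group in 24 of the 25. The level in the sham group also differed between the days: the summed level of the 4 lists was 5050 to 6190 TPM at day 3 and 3580 to 4100 TPM at day 6, against 2840 to 3990 and 2170 to 3220 TPM in CAP-treated wounds.

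**Figure D2:**
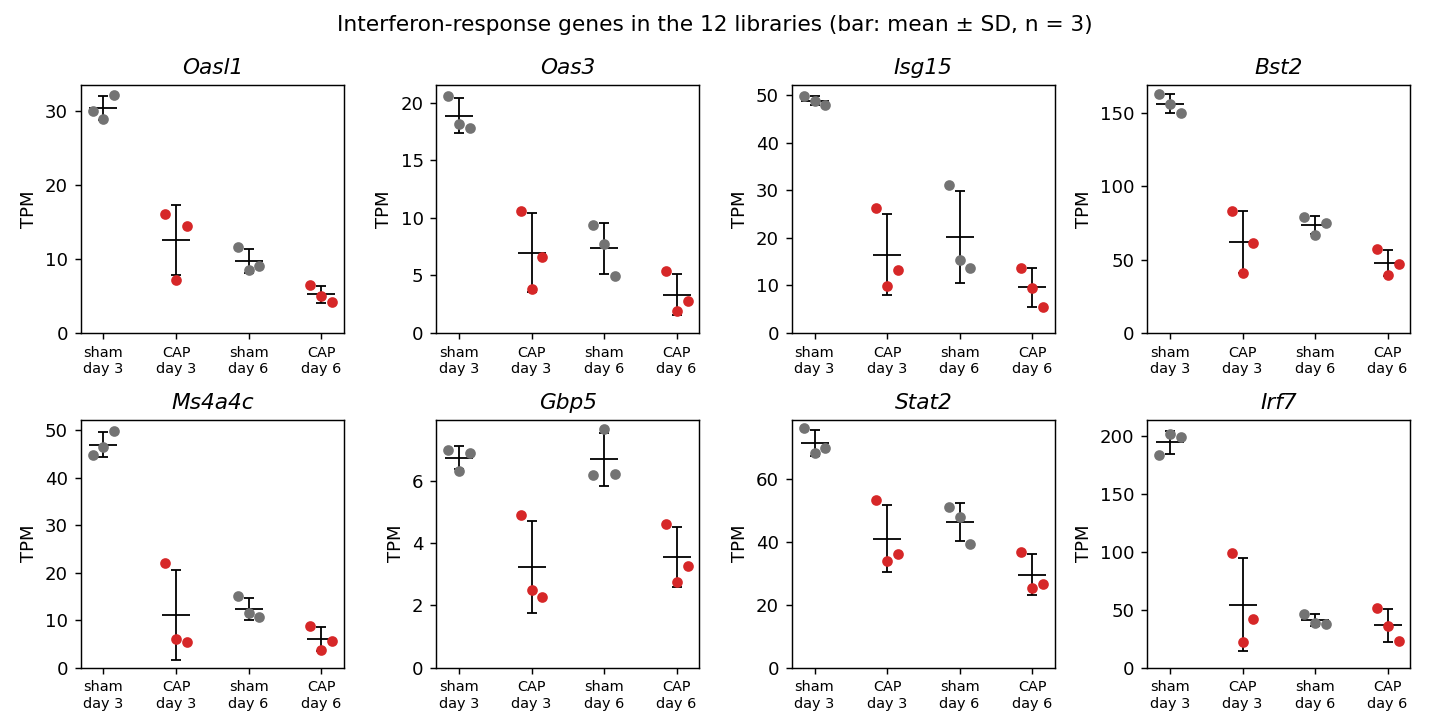
TPM on the y axis (linear, from 0) of 8 genes of the interferon response in the 12 libraries, by group on the x axis, with sham in grey and CAP in red. Points are libraries and bars are the mean ± SD of 3; for Oasl1, Bst2, Ms4a4c, Gbp5 and Stat2 no CAP point reached a sham point of its day, while Irf7 overlapped at day 6.

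Interferons also govern genes of antigen presentation. Of 18 genes of the MHC class I pathway, 17 were below 0 at a median of -0.29, or -0.26 without the day 6 CAP library labelled replicate 2. An unadjusted p under 0.05 was found for 12, all lower, beside 13.6% of all genes, with 0 past the threshold. Psmb8, an immunoproteasome subunit, had 74.7, 62.4 and 74.4 TPM against 52.9, 44.3 and 58.6 TPM at day 3 and 59.9, 54.6 and 57.3 TPM against 44.2, 31.2 and 44.2 TPM at day 6. It was apart at both days, at -0.49 ± 0.10 (exact permutation p = 0.005). Tapbp, which loads peptide onto class I, differed by -0.41 ± 0.09.

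The MHC class II genes were below 0 in all 10 genes tested, with a median of -0.53 that was larger at day 3 (-0.87) than at day 6 (-0.33). An unadjusted p under 0.05 was found for 8, beside 13.6% of all genes that were lower at such a p. Without the day 6 CAP library labelled replicate 2 the median was -0.54 and 7 had such a p. Ciita, the master regulator of class II, differed by -0.74 ± 0.21, and H2-Ab1, a class II beta chain, by -0.61 ± 0.17. Cd74, the invariant chain, differed by -0.62 ± 0.20, with -1.02 at day 3 and -0.22 at day 6. Mir5107, a miRNA gene annotated inside Cd74 on the same strand, was past the threshold at -1.16 ± 0.21. It was at 10.5, 10.2 and 10.2 TPM against 3.60, 4.22 and 3.00 TPM at day 3 and at 10.8, 7.68 and 10.3 TPM against 7.08, 3.14 and 6.63 TPM at day 6. Reads of the miRNA gene and of its host cannot be told apart there.

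Chemokines and their receptors, which guide leukocytes into the wound, were below 0 in 31 of 32 genes tested (median -0.57). Only 16 were below 0 at both days, beside 42.1% of all genes. The list differed more at day 6 (-0.94) than at day 3 (-0.22). Past the threshold were 6, among them the receptor Ccr2 and the ligands Ccl12, Cxcl10, Cxcl13 and Cxcl1. An unadjusted p under 0.05 was found for 15, beside 13.6% of all genes that were lower at such a p. With replicate 2 of the CAP-treated group at day 6 left out, 2 stayed past the threshold and 11 had such a p.

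Ccr2, the receptor of inflammatory monocytes, on chromosome 9 (124101950 to 124113557, plus strand), stood at 107, 78.0 and 91.3 TPM against 49.2, 34.4 and 28.2 TPM at day 3. Its day 6 levels were 79.2, 42.9 and 61.2 TPM against 40.6, 14.7 and 40.2 TPM. No overlap of the groups was seen at either day, at -1.18 ± 0.26 (adjusted p = 0.116, exact permutation p = 0.005). Without the day 6 CAP library labelled replicate 2 the difference was -0.98, short of 2-fold.

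Ccl12, a ligand of CCR2, had 24.1, 9.90 and 17.3 TPM against 10.8, 6.19 and 4.92 TPM at day 3 and 15.7, 15.3 and 10.3 TPM against 10.6, 5.08 and 6.36 TPM at day 6. The groups overlapped at both days, and the difference was -1.07 ± 0.26 (exact permutation p = 0.02), which missed the threshold in 6 of 22 other settings. Ccl7, a further ligand of CCR2, was apart at both days at -0.88 ± 0.20, with 108, 73.6 and 83.1 TPM against 60.6, 48.4 and 70.2 TPM at day 3 and 71.1, 79.3 and 72.5 TPM against 44.8, 20.1 and 36.5 TPM at day 6.

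Cxcl10, a chemokine that interferons induce and that draws T and NK cells, had 10.8, 13.8 and 8.69 TPM against 10.2, 3.90 and 2.08 TPM at day 3. Day 6 levels were 5.37, 7.32 and 4.08 TPM against 4.08, 0.691 and 1.26 TPM. The highest CAP-treated library lay within the sham range at day 3 and at its lower edge at day 6. The difference was -1.52 ± 0.43 (adjusted p = 0.169, exact permutation p = 0.02), with -1.30 at day 3 and -1.75 at day 6, and it stayed past the threshold with each library left out. Cxcl9, a chemokine of the same receptor, differed by -0.90 ± 0.26, with -1.52 at day 3 and -0.28 at day 6.

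Among 16 genes of inflammatory cytokines, 11 were below 0 (68.8%), which is near the 67.6% of all genes tested. Of these, 8 were below 0 at both days, beside 42.1% of all genes. The median of the list was -0.53, and 3 genes were past the threshold, Lif, Il6 and Il10. With replicate 2 of the CAP-treated group at day 6 left out, 0 were past it and the median was -0.24. Il6, a cytokine of the acute phase, stood at 11.9, 3.67 and 2.41 TPM against 2.41, 2.64 and 3.37 TPM at day 3, where 1 sham library was high and the rest overlapped. Its day 6 levels were 5.95, 13.5 and 6.63 TPM against 4.27, 1.26 and 2.82 TPM, with the groups apart. The difference was -1.21 ± 0.41 (adjusted p = 0.215, exact permutation p = 0.02). It was no longer past the threshold without any 1 of 3 libraries: replicate 1 of the sham group at day 3, replicate 2 of the sham group at day 6, or replicate 2 of the CAP-treated group at day 6 (-1.47 to -0.95 over all settings).

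Tnf, the cytokine that starts much of the acute response, differed by -0.53 ± 0.38 (adjusted p = 0.484), with 0.07 at day 3 and -1.12 at day 6. Il10, which restrains inflammation, differed by -1.01 ± 0.36, just past 2-fold, and missed the threshold in 9 of 22 other settings; Lif, a cytokine of the Il6 family, differed by -1.08 ± 0.34 and missed it in 6.

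Of the 15 genes that the study tabulates for inflammation, 13 passed the filter, 12 of these were below 0 (median -0.94), and 5 were past the threshold: Ccr2, Igf2, Gbp9, Cxcl10 and Il6. The study gives Gpnmb and Slc4a1 in this list as higher with CAP and the rest as lower, and Slc4a1 did not pass the filter. The study chose this list and the next on the day 3 libraries, which are 6 of the 12 here, so their direction at day 3 and over both days is not independent evidence; at day 6 the median of each was -0.89. Of the 15 genes it names from the cytokine pathway, it gives 4 as higher with CAP, Gm13306, Il7r, Gdf15 and Ppbp, and the rest as lower. Of the 15, 13 passed, 9 were below 0 and 4 above 0 (median -0.86), and 4 were past the threshold, all lower. At both days 8 were below 0 and 0 were above 0. The counts past the threshold in the 2 lists were 2 and 1 without the day 6 CAP library labelled replicate 2. Cd40, a costimulatory receptor of antigen-presenting cells that is in both lists, had 15.7, 7.88 and 11.4 TPM against 5.69, 5.55 and 5.6 TPM at day 3. Day 6 levels were 9.79, 9.15 and 8.61 TPM against 6.02, 3.74 and 5.21 TPM. Its groups were apart at each day, at -0.94 ± 0.16 with an adjusted p of 0.112. Il2ra (-0.86 ± 0.31) and Tlr9 (-0.80 ± 0.23) were under 2-fold.

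The study tabulates the macrophage gene Arg1 as lower with CAP and the macrophage gene Gpnmb as higher. Neither gene kept a direction between the days. Arg1 lay opposite to its listed direction at day 3 and with it at day 6, while Gpnmb did the reverse. Arg1 differed by 1.44 at day 3 and -1.69 at day 6, and Gpnmb by 1.86 and -0.99, so that the differences over both days were -0.13 ± 0.64 and 0.44 ± 0.62. Trpv1, which encodes the receptor of CAP, and Ifng were below the filter, with at most 0.211 and 0.407 TPM in any library, and no value over both days was computed for them.

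In the list of monocyte and macrophage markers, 18 of 20 genes were below 0 (median -0.45), beside 67.6% of all genes. Of these, 11 were below 0 at both days, beside 42.1% of all genes. Past the threshold were 2, beside 0.832% of all genes: Ccr2 and Ly6c2, both marks of inflammatory monocytes. Ly6c2 differed by -2.48 at day 3 and -0.35 at day 6 (-1.42 ± 0.49 over both). Without the CAP-treated library of day 3 labelled replicate 3 it was not past the threshold (-0.94). With replicate 2 of the CAP-treated group at day 6 left out, the list had a median of -0.24 and 1 gene past it. The general macrophage genes Csf1r (-0.25 ± 0.12) and Adgre1 (-0.19 ± 0.22) had smaller differences, and C1qa, a complement gene of resident macrophages, differed by -0.73 ± 0.19. The summed level of 6 defining markers of the lineage was 3700 to 5250 TPM in the sham group and 4420 to 9880 TPM in CAP-treated wounds at day 3, and 6730 to 9690 TPM against 4000 to 9050 TPM at day 6, with 0 of 6 at 0 in any library. Their part in the lower interferon and chemokine genes was not tested.

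Of 17 T and NK cell genes tested, 13 were below 0 (76.5%, beside 67.6% of all genes). Of these, 9 were below 0 at both days, beside 42.1% of all genes. The median was -0.29, with -0.70 at day 3 and -0.00 at day 6, and it was -0.29 without the day 6 CAP library labelled replicate 2. An unadjusted p under 0.05 was found for 7, all lower, beside 13.6% of all genes, and 1, Gzmb, was past the threshold. Gzmb, a granule protease of killer cells, had 4.51, 5.30 and 6.04 TPM against 2.48, 0.783 and 1.33 TPM at day 3, and 3.76, 2.86 and 3.95 TPM against 3.03, 2.50 and 1.63 TPM at day 6, where the groups overlapped. Klrc1, a receptor of NK cells, was apart at both days at -1.01 ± 0.18, with 53.1% of its 31-base stretches shared with other genes, most with Klrc2. The 5 defining markers summed to 19.2 to 27.9 TPM against 20.4 to 22 TPM at day 3 and 26.6 to 39.6 TPM against 31.8 to 56.2 TPM at day 6. Without the CAP-treated library of day 3 labelled replicate 2, Gzmb missed 2-fold (-0.98). Klrc1 did so in 7 of 22 other settings.

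A second group of lower members, chosen after their values were seen, holds genes of developing and regenerating muscle: Tnnc1, Myh3, Actc1, Tnni1, Mymk, Casq2, Myh8 and Myog. They had some of the largest differences of all members, with Actc1, the cardiac actin that young skeletal muscle also makes, at -2.73 ± 0.60 and Myh3, the embryonic myosin heavy chain, at -2.67 ± 0.55.

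Tnnc1, the troponin C of slow and cardiac muscle, had 8.58, 8.92 and 12.6 TPM against 4.66, 1.95 and 1.41 TPM at day 3. Day 6 levels were 1.64, 5.15 and 9.04 TPM against 0.478, 0.664 and 1.02 TPM. The groups were apart at both days, at -2.24 ± 0.40 (adjusted p = 0.112, exact permutation p = 0.005). Myh3 had 30.9, 26.0 and 32.6 TPM against 15.5, 3.33 and 1.61 TPM at day 3 and 2.29, 8.87 and 14.3 TPM against 0.917, 0.564 and 1.91 TPM at day 6, also apart at both. Tnnc1 and Myh3 stayed past the threshold under every setting.

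Mymk, which encodes myomaker, the fusion protein of myoblasts, stood at 11.5, 12 and 13.2 TPM against 9.15, 2.34 and 1.03 TPM at day 3. Its day 6 levels were 0.503, 2.38 and 3.93 TPM against 0.275, 0.274 and 0.534 TPM, and only the lowest sham and highest CAP library of day 6 crossed. Its difference was -2.05 ± 0.52. Myog, the myogenic factor myogenin, differed by -1.35 ± 0.44, Tnni1, the slow troponin I, by -2.45 ± 0.57, and Casq2 by -1.28 ± 0.30. For Actc1, Tnnc1, Tnni1, Myh3, Mymk and Myog, the CAP-treated library of day 3 labelled replicate 1 was the highest of its group, as for the interferon members. The order of libraries is not given here for Casq2 and Myh8. That library was also highest in 60.2% of the lower members outside the interferon lists and in 42.6% of all genes tested.

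The list of skeletal muscle, which is mostly genes of mature fibres, was below 0 in all 20 genes tested at a median of -0.47 (-0.56 at day 3 and -0.42 at day 6). Past the threshold were 4, Myh3, Myh8, Myh4 and Myog, with 11 at an unadjusted p under 0.05, beside 13.6% of all genes that were lower at such a p. The counts were the same, and the median was -0.54, without the day 6 CAP library labelled replicate 2. Myh4, the fast fibre myosin, had 376, 208 and 170 TPM against 208, 54.6 and 149 TPM at day 3 and 200, 96.3 and 76.4 TPM against 40.7, 43.9 and 69.8 TPM at day 6, with the groups apart at day 6 only; it missed the threshold without any 1 of 3 libraries. The 3 defining markers of mature muscle summed to 2730 to 3950 TPM against 1370 to 3860 TPM at day 3 and 1650 to 2520 TPM against 1240 to 1840 TPM at day 6. How much muscle a sample held cannot be told apart from the level per cell.

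Fibroblast and matrix genes were below 0 in 23 of 24 genes tested, 20 of them at both days, at a median of -0.45 (-0.43 at day 3 and -0.50 at day 6). An unadjusted p under 0.05 was found for 15, all lower, beside 13.6% of all genes, and 4 were past the threshold: Igf2, Col12a1, Tnc and Timp1. With replicate 2 of the CAP-treated group at day 6 left out, the median was -0.42, 11 had such a p and 1 was past the threshold. The summed level of the list was 21500 to 33300 TPM against 15600 to 23600 TPM at day 3 and 30600 to 39800 TPM against 22900 to 32400 TPM at day 6.

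Igf2, a fetal growth factor, had 13.9, 13.6 and 14.4 TPM against 11.6, 4.67 and 2.49 TPM at day 3, and 6.48, 9.10 and 14.0 TPM against 3.67, 3.52 and 4.50 TPM at day 6. It was apart at both days, at -1.34 ± 0.30 (exact permutation p = 0.005), but it overlaps Gm49394 on the same strand and shares 61.9% of its 31-base stretches with other genes, most with Gm49394. Timp1, an inhibitor of matrix proteases, had 622, 276 and 434 TPM against 335, 261 and 268 TPM at day 3 and 881, 727 and 592 TPM against 169, 49.6 and 430 TPM at day 6. Its difference of -1.40 ± 0.48 was mostly that of day 6 (-2.24, against -0.56 at day 3). Tnc, the tenascin C of provisional matrix, was at -1.14 ± 0.38 and apart at both days. Without the day 6 CAP library labelled replicate 2, Timp1 (-0.94), Tnc (-0.76) and Col12a1 (-0.79) missed 2-fold.

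Spon1, a secreted matrix protein among the 12 lower members of smallest p, had 14.6, 8.86 and 11.6 TPM against 4.96, 3.04 and 1.94 TPM at day 3 and 10.4, 11.5 and 15.1 TPM against 7.79, 2.30 and 5.33 TPM at day 6. The groups did not overlap, and the difference was -1.62 ± 0.30 (adjusted p = 0.112). Tceal7, an X-linked gene and likewise among the 12, stood at 4.46 to 6.85 TPM in the sham group and 1.41 to 3.98 TPM in CAP-treated wounds over both days, at -1.21 ± 0.24. The collagen genes of smallest p in the matrix list differed by less: Col6a1 by -0.48 ± 0.12 and Col5a1 by -0.62 ± 0.16. Values of Col1a1, Col1a2 and Col3a1, also in that list, are not given here.

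The list of Schwann cells and nerve was below 0 in all 14 genes tested, beside 67.6% of all genes. Of these, 10 were below 0 at both days, beside 42.1% of all genes. The median of the list was -0.40, or -0.30 without the day 6 CAP library labelled replicate 2. The 1 gene past the threshold, beside 0.832% of all genes, was Ncam1, an adhesion protein of nerve, Schwann cells and regenerating muscle. It had 16, 11.9 and 9.41 TPM against 9.20, 3.66 and 3.54 TPM at day 3 and 8, 11 and 11.4 TPM against 2.71, 3.11 and 7.65 TPM at day 6. No overlap of the groups was seen at either day, at -1.29 ± 0.29 (exact permutation p = 0.005).

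**Figure D3:**
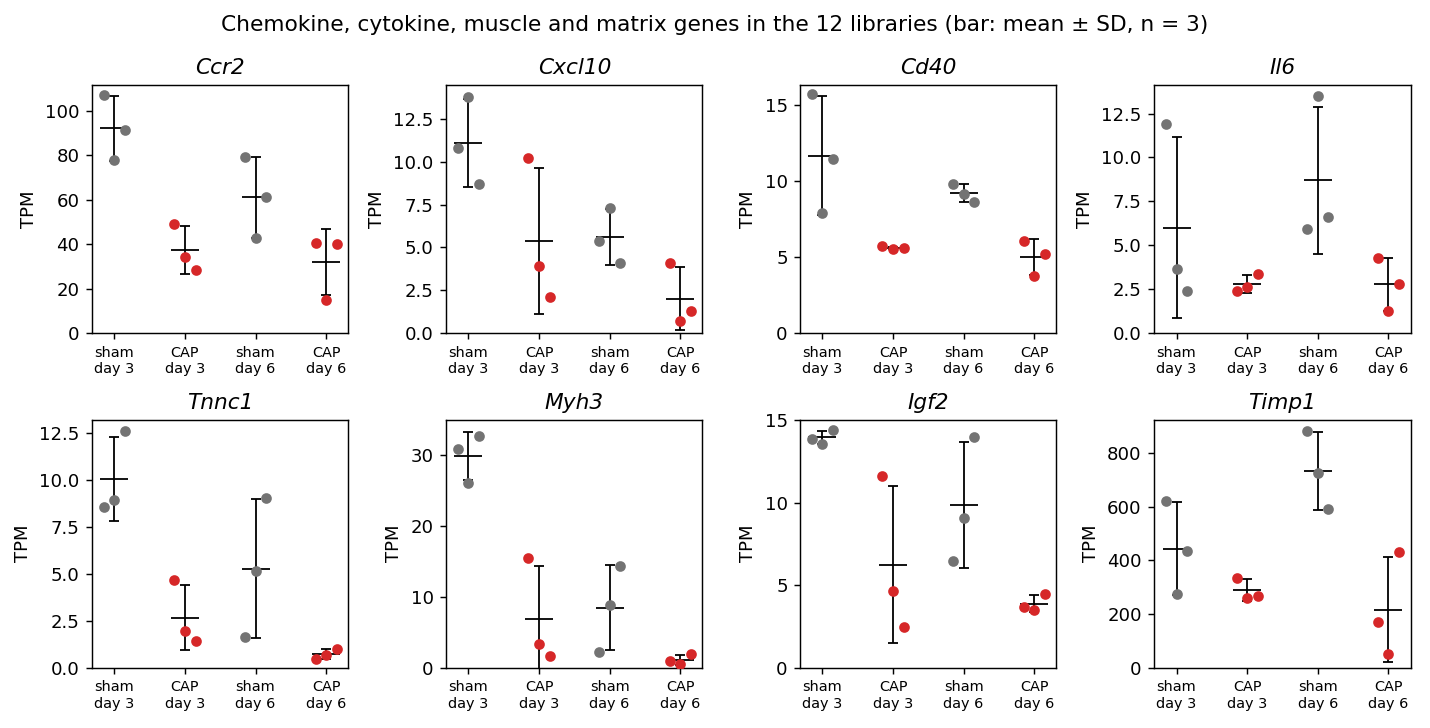
TPM on the y axis (linear, from 0) of 8 chemokine, cytokine, muscle and matrix genes in the 12 libraries, by group on the x axis, with sham in grey and CAP in red and bars for the mean ± SD of 3. For Ccr2, Cd40, Tnnc1, Myh3 and Igf2 the CAP points lie below the sham points of their day, while Cxcl10, Il6 and Timp1 overlap at day 3.

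Among the genes of smallest p over both days, 4 chosen after their values were seen had small and even differences. Fscn1, an actin-bundling protein of migrating and dendritic cells, had 162, 150 and 146 TPM against 122, 121 and 113 TPM at day 3 and 142, 158 and 142 TPM against 97.5, 88.2 and 113 TPM at day 6. Its groups were apart at each day, at -0.47 ± 0.07 (adjusted p = 0.112). Fst, the activin antagonist follistatin, differed by -0.78 ± 0.12 and Twist2, a factor of dermal fibroblasts, by -0.64 ± 0.11. Has2, which makes hyaluronan, differed by -0.71 ± 0.13. These had larger differences and SE than Fscn1 and were also under 2-fold. The differences of Fst were -0.77 at day 3 and -0.78 at day 6.

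The higher members were 4 protein-coding and 16 other genes, 0 of which were in any list. Only 2 were past the threshold at each day, 16 of 20 had the larger difference at day 6, and in 0 were the groups apart at both days. The 4 of smallest p were Gm10243 and 3 pseudogenes, Rpl35a-ps6, Rpl35a-ps3 and Rpl35a-ps5, at 1.20 ± 0.26, 1.13 ± 0.25, 1.12 ± 0.26 and 1.38 ± 0.33. Gm10243, Rpl35a-ps6 and Rpl35a-ps3 share 100% of their 31-base stretches with other genes, so the 4 values are not separate measurements. Rpl35a-ps6 had 21.7, 27.4 and 16.1 TPM against 34.6, 60.7 and 67.0 TPM at day 3, apart, and 25.8, 22 and 16 TPM against 22.8, 55.4 and 54.8 TPM at day 6, overlapping. Rpl35a itself, the ribosomal protein gene, differed the other way at -0.30 ± 0.09, with 326 to 514 TPM over the 12 libraries.

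Krt76, a keratin of the suprabasal epithelium, was the protein-coding gene with the largest positive difference over both days, 2.13 ± 0.72. It had 1.37, 3.74 and 0.0001 TPM, where 0.0001 stands for 0 in the tables, against 2.98, 3.65 and 2.25 TPM at day 3, overlapping, and 0.428, 1.59 and 0.294 TPM against 3.84, 3.95 and 3.11 TPM at day 6, apart (exact permutation p = 0.02). A library listed at 0 makes this value depend on the pseudocount. Slc16a5, a monocarboxylate transporter, differed by 1.54 ± 0.43, with 0.185, 1.35 and 0.467 TPM against 1.59, 0.840 and 0.635 TPM at day 3 and 0.380, 0.538 and 0.518 TPM against 2.87, 3.78 and 1.93 TPM at day 6. With a pseudocount of 1 TPM it missed 2-fold (0.83). Gm11695, which overlaps Slc16a5 on the other strand, is also a higher member, and reads of the 2 genes may not be separable. Rgn, which encodes regucalcin, differed by 1.39, with 0.20 at day 3 and 2.57 at day 6, and missed the threshold in 6 of 22 other settings.

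Keratinocyte lists moved at 1 day more than at both. Cornified envelope genes had a median of 0.55 over both days, made of -0.01 at day 3 and 1.15 at day 6; 9 of 19 were higher at an unadjusted p under 0.05, beside 2.86% of all genes, and 13 differed between the days at that p. With replicate 2 of the CAP-treated group at day 6 left out, 2 were higher at that p and the median was 0.38. Flg, the filaggrin gene of the barrier, was past the threshold over both days (1.04 ± 0.47) with -0.17 at day 3 and 2.26 at day 6, and so is not a member; it missed the threshold in 11 of 22 other settings. Klk5 (0.66 ± 0.23) and Lor (0.79 ± 0.29) were under 2-fold. Tchh, a sheath protein of the hair follicle, was the 1 lower member of this list (-1.13 ± 0.41), and missed the threshold without any 1 of 3 libraries. The 4 defining keratinocyte markers summed to 27200 to 44300 TPM against 22900 to 43700 TPM at day 3 and 24600 to 27600 TPM against 42500 to 89800 TPM at day 6. Since TPM are shares, a higher share of keratinocyte RNA lowers the other shares, and its part in the lower members at day 6 was not tested.

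In further lists the medians of the 2 days differed. Erythroid genes were at 2.06 at day 3 and -1.09 at day 6, with 0 of 9 on the same side, and platelet genes were at 0.55 and -0.80. Neutrophil genes were at 0.06 and -1.26 and endothelial genes at -0.04 and -0.99, with 0 past the threshold over both days in either list. On the same side at both days were 5 of 10 neutrophil and 11 of 15 endothelial genes. The days differed at an unadjusted limma p under 0.05 for 3 and 2 genes, beside 11.5% of all genes. At day 6 the CAP-treated library labelled replicate 2 had the lowest summed level of its group in both lists, 427 and 195 TPM. Kdr, the VEGF receptor of endothelium, differed by -0.70 ± 0.29 and Pecam1, which encodes CD31, by -0.48 ± 0.29. The medians over both days were -0.48 for neutrophil, -0.54 for endothelial, 0.49 for erythroid and -0.11 for platelet genes. Without the day 6 CAP library labelled replicate 2 they were -0.17, -0.28, 0.89 and 0.02. Cell cycle genes were at -0.01, with 0 of 20 at an unadjusted p under 0.05. The circadian list was at 0.12, with 3 higher and 1 lower at that p, Npas2 (-0.85 ± 0.29). No gene was past the threshold in the lists of basal and suprabasal keratinocytes (median 0.23), wound-edge keratinocytes (-0.15), sebocytes and adipocytes (0.30), dendritic cells (-0.36) or mast cells (-0.12), or in the few genes tested of hair follicle (4) and B cells (3).

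**Figure D4:**
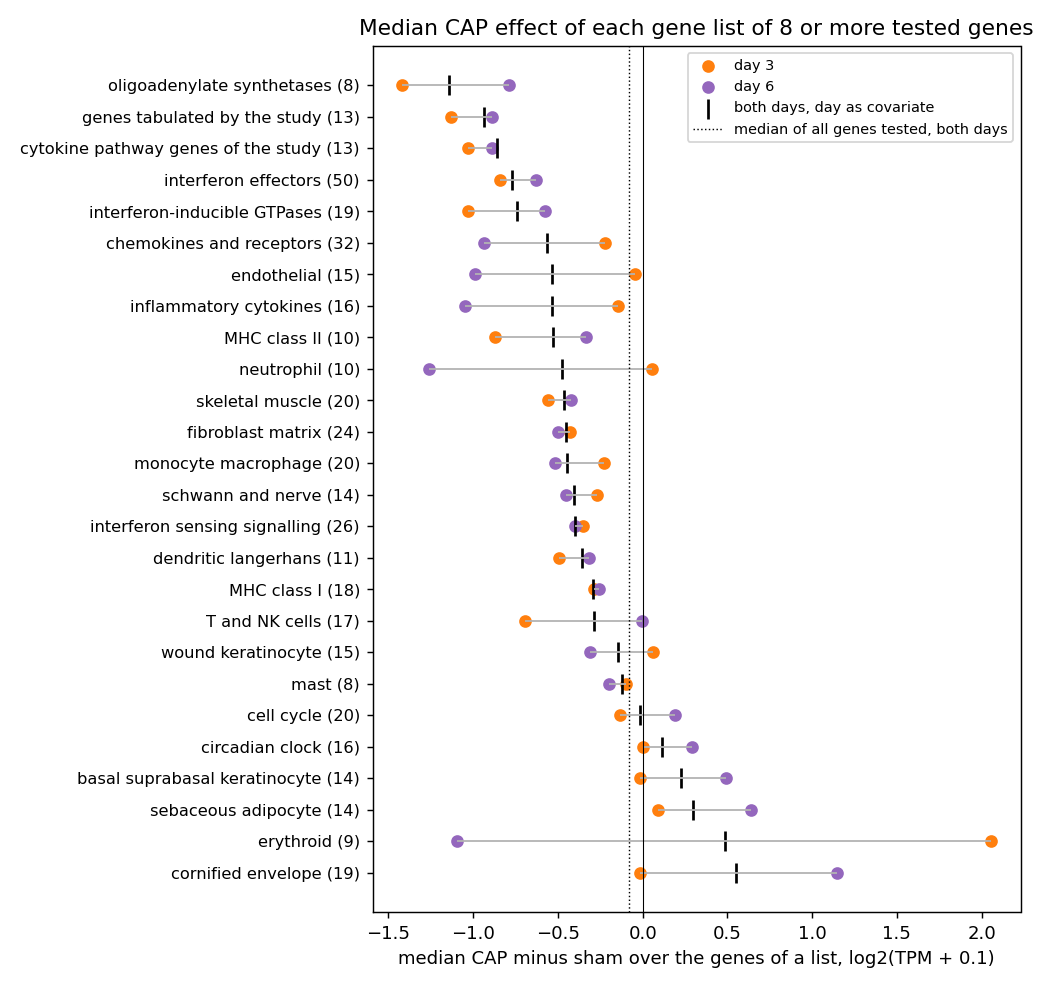
Median CAP minus sham difference, as log2(TPM + 0.1), of each list with 8 or more genes tested (number in brackets), at day 3 (orange), at day 6 (purple) and over both days (black tick), with the median of all genes tested, -0.08, as a dotted line. Oligoadenylate synthetases, interferon effectors and inducible GTPases lie below -0.5 at both days, while erythroid genes lie at 2.06 and -1.09.

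At the edge of the filter, Amn (lowest group mean 0.3002 TPM) and Klri2 (0.3003 TPM) were just inside. Aldh1a2 (0.2995 TPM) and Pdcd1lg2 (0.2993 TPM) were just outside.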

How the data were processed

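The authors sequenced mRNA from wounded mouse skin, 3 libraries in each of 4 groups (SureSelect XT HS2 mRNA kit). Per the submitters' processing notes, bcl2fastq and Trimmomatic 0.36 were used with the build mm10, and the methods name StringTie; no source used here names the aligner. Each deposited table gives TPM for the same 55487 genes, with columns that sum to 1000003.08 to 1000003.23, and with coordinates of GENCODE M21 for 54777 genes. The strand setting of the counting is not given, so overlapping genes are uncertain.

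Groups followed treatment and day. Values were put on log2(TPM + 0.1), and limma 3.58.1 in R 4.3.3 was fitted to all tested genes with treatment and day, with an intensity trend and Benjamini-Hochberg adjustment; day effects and their difference came from a fit of the 4 group means. Single genes also had an exact permutation test within days (2-sided). The fit was tested on simulated data. No depth is known, and the precision rests on 3 libraries per group.

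The members and lists were chosen with earlier results of these data known. Of 527 list entries, 524 matched a gene, by symbol or RefSeq synonym. Named genes were taken from, per direction, the 12 members of smallest p; the 3 genes of smallest p of each list; the genes the study names; and Tnf, Pecam1, Trpv1 and Ifng. Others were named after their values were seen: Ms4a4c, Isg15 and further members, Cd74, Flg, Rpl35a, Fscn1, Fst, Twist2, Has2, Csf1r and Adgre1. Shared sequence is the share of a gene's 31-base stretches found in other GENCODE M21 transcripts. Alternatives were other pseudocounts, filters and scalings, no intensity trend, robust estimation, 4 group means, a replicate block, and leaving out each of 12 libraries. Python 3.11.15, numpy, pandas and matplotlib were used. A few genes are not reported here.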

Additional observations from a re-analysis of the deposited data

Results flagged for a closer look

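Of the 114 genes for which the other settings were computed, 20 had a CAP effect that differed between the days at an unadjusted limma p under 0.05 for the difference itself, between 0.000796 and 0.0435. The adjusted p was 0.424 for 18 of them and 0.433 for Gbp3 and Hlf, so none passed the correction, and 2038 of the 17784 genes tested had such an unadjusted p. Values are the day 6 effect minus the day 3 effect on the log2(TPM + 0.1) scale.

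The effect was lower at both days and smaller at day 6 for Bst2 (0.75), Phf11d (1.01), Irf7 (1.86), Gbp3 (0.93), Cd74 (0.80), Cxcl9 (1.24), Ly6c2 (2.13) and Gzmb (1.28). It was lower at both days and larger at day 6 for Tchh (-1.68). For the keratinocyte genes Krt10, Klk5, Lor and Flg and the clock gene Hlf the effect was higher at day 6 and between -0.17 and 0.15 at day 3, with differences of Krt10 (1.65), Klk5 (1.09), Lor (1.29), Flg (2.42) and Hlf (0.81). For Rgn it was higher at both days and larger at day 6 (2.37). For Arg1, Gpnmb, Hbb-bs, a haemoglobin gene, Pf4, a platelet chemokine gene, and Mmp9, a protease gene of neutrophils, the effect was above 0 at day 3 and below 0 at day 6, with differences of Arg1 (-3.14), Gpnmb (-2.85), Hbb-bs (-3.20), Pf4 (-1.35) and Mmp9 (-1.42).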

How the results depend on the processing

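Over both days, genes lower and higher numbered 148 and 21. They numbered 66 and 7 with a pseudocount of 1 TPM, 250 and 63 with no filter, 111 and 35 after median-ratio scaling, and 94 and 42 after quantile normalization, and a filter of 0.3 TPM in every library left 10 higher and 107 lower. With a pseudocount of 1 TPM the counts of single days were 108 lower and 36 higher at day 3 and 244 and 159 at day 6, with no filter 353 and 140 at day 3, and after quantile normalization 260 and 399 at day 6. The cause was not tested.

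Leaving out each library in turn gave 102 (without replicate 2 of the CAP-treated group at day 6) to 200 (without replicate 2 of the sham group at day 3) genes lower over both days and 14 to 53 higher, and 0 to 1 at an adjusted p under 0.05. At day 3 it gave 129 to 358 lower and 42 to 133 higher, with the highest counts without replicate 1 of the CAP-treated group. At day 6 it gave 158 to 1036 lower and 130 to 446 higher, lowest without replicate 2 and highest without replicate 3 of the CAP-treated group. Genes whose days differed at an unadjusted p under 0.05 numbered 1140 to 3713. Of the signs of 114 named genes tested, those of Arg1 (-0.49 to 0.36) and Pf4 (-0.30 to 0.02) reversed when a library was left out; the cause was not tested. Of 64 named genes past the threshold, 27 stayed past it under every setting in which they were tested.

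Whether replicate numbers pair the samples is not settled. Correlations of same-numbered deviations were -0.139 to 0.023 at day 3 and 0.03 to 0.102 at day 6. With a replicate block, 143 genes were lower and 20 higher over both days, of which 137 and 15 were also past the threshold without it, the smallest adjusted p was 0.0842 in limma, 0 genes had an adjusted p under 0.05 in the effect over both days, and among the named genes Cxcl1, Ptx3, Flg and Rgn lost their call, while 4 genes reached an adjusted p under 0.05 for the difference between days. Every day 6 sample correlated best with its own number, which was not so at day 3. Depth is unknown in TPM.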
